A study of Mus musculus with 288 samples.

Results

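The genes described here are 48 genes of the cell division cycle, followed across bone marrow-derived macrophages (BMDMs) given an inhibitor of the kinase CDK8 and then an innate immune stimulus. They were taken by symbol from the 23481 genes of a count table, and all 48 were found in it. They comprise 10 S-phase genes (6 Mcm genes, Pcna, Rrm1, Rrm2 and Tyms), the G1/S cyclin gene Ccne2, 31 mitotic genes and 6 structural genes. The structural genes encode chromatin, tubulin, tubulin-binding and lamin proteins, and that of Hmgb2 is abundant in cycling cells. The cells came from the bone marrow of C57BL/6 mice aged 12 weeks and were grown for 7 days with M-CSF, the growth factor that drives macrophages out of marrow. They were held with DMSO, the solvent control, with dCA at 100 nM for 24 h or with BRD-6989 at 1 µM for 24 h, so the inhibitors were used at different doses. After that, wells got no stimulus (NoStim) or 1 of 11 stimuli, which the labels call SeV, Pam3cys, Poly(I:C), LPS, CpG, FLA, R848, MDP, MDP_LPS, TDB and Zymosan. Wells were collected at 15, 30, 45, 60, 90, 120, 150 and 180 min, with 1 well for each pretreatment, condition and time.

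A dividing cell copies its DNA in S phase and parts the copies in mitosis. The S-phase genes encode the replicative helicase (Mcm genes), the clamp that holds DNA polymerases on their template (Pcna) and enzymes that make deoxynucleotides (Rrm1, Rrm2, Tyms). The mitotic genes encode the kinase CDK1 and its cyclins, the aurora and polo kinases, kinetochore and checkpoint proteins, condensin and the motors of the spindle. In most cells the S-phase genes are switched by E2F factors, and the mitotic genes by complexes that bind a CHR element together with the CCAAT-binding factor NF-Y. M-CSF is a mitogen for macrophages, and signals through toll-like receptors are known to slow their division.

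Transcripts were read from their 3' ends, with random barcodes that count distinct molecules (UMI). Wells held 37542 to 127223 UMI with a median of 77485. Levels are given in UPM, the UMI of a gene per 1000000 UMI of its library without Rn45s, the 45S ribosomal RNA precursor, since Rn45s took 44.4 to 61.3% of the UMI of a summed library under DMSO, 39.2 to 55.0% under dCA and 35.2 to 48.5% under BRD-6989. For the pretreatments and stimuli, the 8 times of each well series were summed into 36 libraries, 12 per pretreatment, which held 227325 to 449471 UMI without Rn45s. The DMSO, dCA and BRD-6989 plates held 3542134, 3600009 and 4330334 UMI without Rn45s. Where UMI of a gene are given by pretreatment, they are not scaled to these totals. Each pretreatment filled 1 plate, each stimulus 1 plate column and each time 1 plate row, so the effect of an inhibitor, stimulus or time and that of its place on the plates cannot be told apart. No separate cultures or animals are named, so p-values measure the spread between these libraries, which may be technical. In bulk samples fewer dividing cells and less RNA per dividing cell cannot be told apart. The macrophage label held against its markers: of 13 macrophage markers, 11 were in the table, and their summed level ran from 8812 to 11205 UPM over all 36 libraries. Other cell types were sought by lists. Of 9 red cell genes, 8 were at 0 UMI in every well. Of 7 fibroblast and stromal genes, 3 (Dcn, Lum and Pdgfra) were at 0, and the list summed to 22.2 to 132 UPM, nearly all from Acta2 with 234, 231 and 254 UMI under DMSO, dCA and BRD-6989. Of 6 dendritic cell genes, Flt3 and Clec9a were at 0, and the list summed to 5.15 to 68.0 UPM, mostly from Xcr1. Granulocyte and lymphoid genes, which differed between the groups, are given beside the inhibitor results.

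The members' promoters are shown for the genes on which the results below turn, with the motifs of these regulators in capitals. RefSeq promoter windows (GRCm38.p6, 250 bases before to 50 after the start) matched 39 of the 48 members. A CHR, searched as TTTGAA or TTCGAA on both strands, was in 21 of 26 mitotic promoters (80.8%), in 2 of 9 S-phase promoters (22.2%) and in 21.7% of the promoters of all 27025 genes. CCAAT on either strand was in 22 of the 26 (84.6%), 8 of the 9 (88.9%) and 41.1% of all. E2F cores, searched as TTTCGCGC, TTTGGCGC, TTTCCCGC and TTTGCCGC on both strands, were in 1 mitotic promoter (3.85%), 4 S-phase promoters (44.4%) and 2.6% of all. In the 150 bases before the start alone, the mitotic share with a CHR was 38.5% and that of all genes 11.2%. The stretches below run 5' to 3' on the gene's strand, from 150 bases before the start to 50 after it. A capital run marks a CHR, CCAAT or E2F match on either strand, so ATTGG is CCAAT and TTCAAA is TTTGAA on the other strand, and neighbouring matches can run together.
Pcna, chr2:132253131-132253330, minus strand: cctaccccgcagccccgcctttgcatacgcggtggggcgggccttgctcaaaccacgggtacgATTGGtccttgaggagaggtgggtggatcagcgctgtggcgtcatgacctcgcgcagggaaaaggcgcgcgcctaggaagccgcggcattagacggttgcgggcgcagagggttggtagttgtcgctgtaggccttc
Mcm5, chr8:75109359-75109558, plus strand: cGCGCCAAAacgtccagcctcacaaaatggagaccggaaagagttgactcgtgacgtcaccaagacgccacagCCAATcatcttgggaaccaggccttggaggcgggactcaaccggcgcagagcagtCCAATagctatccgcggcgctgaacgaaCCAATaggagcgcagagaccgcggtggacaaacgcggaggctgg
Mcm7, chr5:138171834-138172033, minus strand: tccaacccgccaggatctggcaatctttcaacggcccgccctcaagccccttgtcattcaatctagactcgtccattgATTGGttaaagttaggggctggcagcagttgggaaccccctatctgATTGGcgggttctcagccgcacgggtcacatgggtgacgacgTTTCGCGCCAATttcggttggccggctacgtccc
Cenpe, chr3:135212413-135212612, plus strand: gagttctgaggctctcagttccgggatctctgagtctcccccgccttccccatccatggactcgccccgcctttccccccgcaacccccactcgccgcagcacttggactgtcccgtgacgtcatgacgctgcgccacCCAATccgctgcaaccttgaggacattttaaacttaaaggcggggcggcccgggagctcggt
Mki67, chr7:135716330-135716529, minus strand: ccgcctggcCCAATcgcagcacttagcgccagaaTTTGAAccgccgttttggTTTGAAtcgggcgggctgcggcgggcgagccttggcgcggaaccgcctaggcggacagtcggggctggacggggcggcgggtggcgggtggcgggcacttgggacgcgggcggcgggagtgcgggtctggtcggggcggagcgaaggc
Top2a, chr11:99024140-99024339, minus strand: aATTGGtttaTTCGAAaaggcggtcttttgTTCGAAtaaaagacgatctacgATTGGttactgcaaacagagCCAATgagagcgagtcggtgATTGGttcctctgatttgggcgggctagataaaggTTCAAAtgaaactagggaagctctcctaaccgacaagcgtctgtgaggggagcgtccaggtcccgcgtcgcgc
Smc2, chr4:52439071-52439270, plus strand: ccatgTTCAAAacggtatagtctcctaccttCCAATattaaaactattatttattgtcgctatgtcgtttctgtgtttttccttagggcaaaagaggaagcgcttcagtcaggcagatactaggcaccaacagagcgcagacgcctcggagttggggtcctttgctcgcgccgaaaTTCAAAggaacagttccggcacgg
Kif11, chr19:37376232-37376431, plus strand: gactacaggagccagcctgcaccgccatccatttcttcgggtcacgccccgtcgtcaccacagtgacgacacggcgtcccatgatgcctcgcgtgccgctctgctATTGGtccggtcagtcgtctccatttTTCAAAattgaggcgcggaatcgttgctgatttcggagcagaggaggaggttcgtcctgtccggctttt
Hmgb2, chr8:57511693-57511892, plus strand: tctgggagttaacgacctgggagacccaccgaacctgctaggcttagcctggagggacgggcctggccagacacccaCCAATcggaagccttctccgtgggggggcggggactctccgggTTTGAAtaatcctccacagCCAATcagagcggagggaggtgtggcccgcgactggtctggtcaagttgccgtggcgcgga
In these stretches Mki67 and Smc2 held a pair of CHR matches each, Top2a 3, Kif11 and Hmgb2 1, and Cenpe none. Pcna held a CCAAT match alone, while Mcm5 and Mcm7 held an E2F core each beside 3 CCAAT matches. A match describes the letters of a window and is not a measured binding site.

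Under dCA, 3 of 4 tested chromosome structure genes, 2 of 3 centromere genes, 1 of 7 spindle genes and 4 of 6 structural genes fell, while the clamp gene Pcna rose. Of the 48 members, 36 had enough UMI to be tested in the 36 libraries. With dCA, 10 of the 36 fell and 1 rose, and 31 of the 36 lay below 0. Over all 5691 genes tested, 17.9% were called in either direction, 8.12% lower and 9.82% higher, and 2797 lay above 0. The median log2 change of the 36 members was -0.29 and that of all genes -0.01. The members that fell were Cenpe, Cenpf, Mki67, Top2a, Smc2, Tpx2, Hmgb2, H2afz, Stmn1 and Lmnb1. With BRD-6989, 5 of the 36 fell (Mcm5, Mcm7, Kif11, Hmgb2 and Tuba1b) and 2 rose (Pcna and Smc2). Of all genes, 21% were called in either direction, 10.5% lower and 10.5% higher, so the members' share was close to the background. Both inhibitors were set against the same 12 DMSO libraries, so their changes are not independent. Log2 changes are given ± SE from edgeR's quasi-likelihood test, with Benjamini-Hochberg adjusted p over all genes tested.

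**Figure D1:**
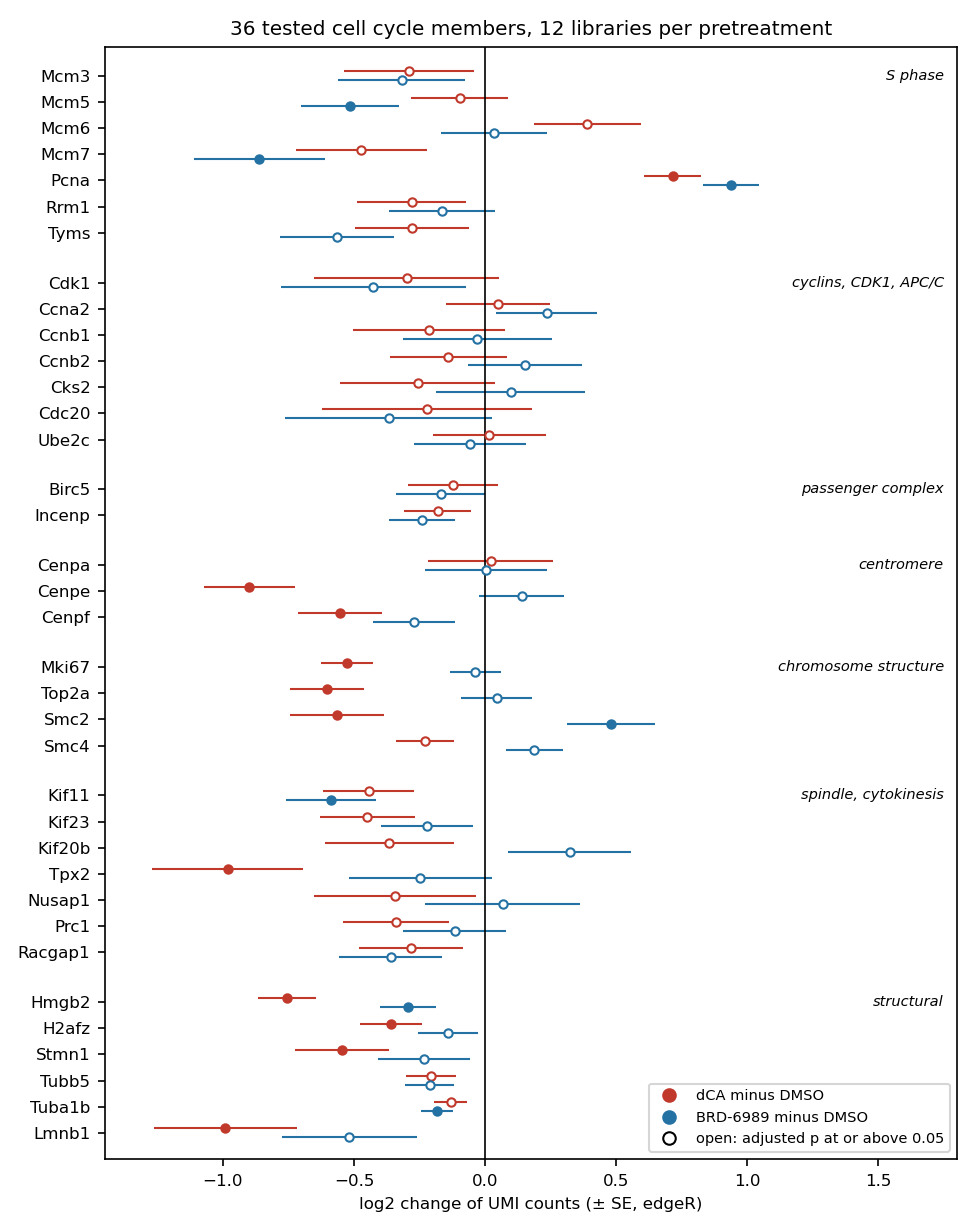
Log2 change of each of the 36 tested members (x axis, ± SE) under dCA (red) and BRD-6989 (blue) against DMSO, grouped by role on the y axis, over 12 summed libraries per pretreatment. Filled points have an adjusted p under 0.05: 10 members are filled below 0 and Pcna above 0 for dCA, against 5 below and 2 above 0 for BRD-6989.

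Among the S-phase genes, Pcna stood apart from the helicase and nucleotide genes. Pcna ran from 141 to 332 UPM with a median of 213 under DMSO, from 273 to 394 with a median of 316 under dCA, and from 306 to 454 with a median of 389 under BRD-6989. The DMSO library at the top was that of Poly(I:C), and 10 of 12 BRD-6989 libraries and 4 of 12 dCA libraries lay above it. Pcna rose by 0.72 ± 0.11 under dCA (adjusted p = 8.89e-07, higher in 11 of 12 conditions) and by 0.94 ± 0.11 under BRD-6989 (adjusted p = 5.66e-10, higher in 12 of 12). The BRD-6989 call on Pcna was lost when each library's Rn45s share entered the model (0.65 ± 0.24; adjusted p = 0.144).

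Mcm7, a subunit of the helicase, ran from 35.8 to 105 UPM with a median of 57.3 under DMSO, from 15.7 to 56.4 with a median of 46.3 under dCA, and from 7.60 to 57.8 with a median of 33.1 under BRD-6989. It was lower than DMSO in 12 of 12 conditions under BRD-6989 and in 11 of 12 under dCA, although the ranges overlapped. Mcm7 changed by -0.86 ± 0.25 under BRD-6989 (adjusted p = 0.00866) and by -0.47 ± 0.25 under dCA (adjusted p = 0.209). The first call was lost with the Rn45s share in the model (-1.56 ± 0.58, adjusted p = 0.145), on total read counts (adjusted p = 0.226) and without the low-count filter (adjusted p = 0.0557).

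Mcm5 ran from 51.4 to 181 UPM under DMSO, from 42.1 to 125 under dCA and from 34.4 to 119 under BRD-6989, with medians of 95.6, 97.7 and 69.3. With BRD-6989 it fell by 0.51 ± 0.19 on the log2 scale (adjusted p = 0.04, 11 of 12 conditions lower), and its value under dCA was -0.10 ± 0.18. That call was lost in 7 of the 12 fits that each left out 1 condition (NoStim, Pam3cys, Poly(I:C), CpG, MDP, TDB or Zymosan, with log2 changes of -0.53 to -0.43 and adjusted p of 0.0508 to 0.117). It was also lost with the Rn45s share in the model (-0.30 ± 0.43, adjusted p = 0.825), in wells of 60 min and later (-0.35 ± 0.24, adjusted p = 0.36), without the filter (adjusted p = 0.153), on total read counts (0.239), without the replicate block (0.0672) and over single wells (0.26). Mcm6, by contrast, had a mean of 92.7 ± 43.0 UPM under DMSO, 116 ± 48.9 under dCA and 91.3 ± 23.2 under BRD-6989 (SD, n = 12), with log2 changes of 0.39 ± 0.20 and 0.03 ± 0.20 that did not pass.

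Rrm1, the large subunit of ribonucleotide reductase, had means of 124 ± 41.1, 96.0 ± 30.6 and 108 ± 39.9 UPM under DMSO, dCA and BRD-6989. Tyms, thymidylate synthase, had means of 79.2 ± 23.0, 63.2 ± 22.0 and 52.1 ± 14.8, and was lower than DMSO in 10 of 12 conditions under either inhibitor. Neither they nor Mcm3 passed the test, the lowest adjusted p being 0.0562 for Tyms under BRD-6989. Mcm2, Mcm4 and Rrm2 had 232 to 344 UMI in all and were too rare to test in the 36 libraries. Ccne2, a cyclin that starts S phase with CDK2, was also below the filter, with 97 UMI under DMSO, 31 under dCA and 106 under BRD-6989. Without the filter, in which genes with few UMI enter, Ccne2 had a log2 change of -1.58 ± 0.49 under dCA (adjusted p = 0.0211) and 0.11 ± 0.43 under BRD-6989 (adjusted p = 0.976).

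None of the 7 tested cyclin, CDK1 and anaphase-promoting complex genes passed under either inhibitor. Ccna2 (cyclin A2) had means of 97.5 ± 28.8, 97.2 ± 39.0 and 113 ± 30.7 UPM under DMSO, dCA and BRD-6989, and Ccnb2 (cyclin B2) had 98.8 ± 29.2, 85.2 ± 35.6 and 107 ± 33.4. Ube2c, the ubiquitin-conjugating enzyme of the complex, had 82.4 ± 31.9, 79.2 ± 18.1 and 77.3 ± 22.5. The log2 changes of the 7 genes ran from -0.30 to 0.05 under dCA and from -0.43 to 0.23 under BRD-6989, with unadjusted p of 0.228 or more in each. Cks1b, a small subunit that binds CDKs, had 170 UMI in all and was not tested.

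Of the 4 chromosome structure genes, 3 fell under dCA and 0 under BRD-6989. Mki67, which encodes the Ki-67 coat of mitotic chromosomes and a common mark of cycling cells, ran from 517 to 988 UPM with a median of 636 under DMSO, from 228 to 599 with a median of 464 under dCA, and from 326 to 825 with a median of 716 under BRD-6989. All 12 conditions were lower under dCA than under DMSO, and 7 of the 12 dCA libraries lay below every DMSO library. Mki67 fell by 0.53 ± 0.10 on the log2 scale under dCA (adjusted p = 6.05e-05), and its change under BRD-6989 was -0.04 ± 0.10 (adjusted p = 0.841). With the Rn45s share in the model these values became -0.22 ± 0.11 (adjusted p = 0.237) and 0.74 ± 0.19 (adjusted p = 0.0147), so both calls moved with that share.

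Top2a, the topoisomerase that untangles sister chromatids, ran from 133 to 400 UPM under DMSO, from 99.1 to 253 under dCA and from 147 to 398 under BRD-6989, with medians of 258, 149 and 246. It was lower than DMSO in 12 of 12 conditions under dCA and in 6 of 12 under BRD-6989, with overlapping ranges. Top2a fell by 0.60 ± 0.14 on the log2 scale under dCA (adjusted p = 0.00125) and changed by 0.04 ± 0.14 under BRD-6989. The dCA call was lost in wells of 60 min and later (-0.44 ± 0.18, adjusted p = 0.0877) and with the Rn45s share in the model (-0.33 ± 0.17, adjusted p = 0.238).

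Smc2 and Smc4 encode the ATPase pair of condensin, which folds chromosomes. Smc2 ran from 57.3 to 187 UPM under DMSO, from 52.6 to 117 under dCA and from 119 to 216 under BRD-6989, with medians of 121, 66.3 and 155. The dCA and BRD-6989 libraries did not overlap, and DMSO spanned both. The share of all genes without such overlap was not counted, so the gap is given as a description only. Smc2 fell by 0.57 ± 0.18 on the log2 scale under dCA (adjusted p = 0.0198) and rose by 0.48 ± 0.17 under BRD-6989 (adjusted p = 0.0328). The fall was lost without SeV (-0.46, adjusted p = 0.0796), without Zymosan (-0.49, adjusted p = 0.0626) and in wells of 60 min and later (-0.67 ± 0.26, adjusted p = 0.0745). The rise was lost in 6 of the 12 fits that left out 1 condition (Poly(I:C), LPS, CpG, R848, MDP or TDB, with adjusted p of 0.0675 to 0.0867 and log2 changes of 0.40 to 0.45), and became -0.15 ± 0.38 with the Rn45s share in the model. It was also lost without the filter (adjusted p = 0.0639), on total read counts (0.069), without the replicate block (0.0713), in wells of 60 min and later (0.111) and without TMM (0.0507). Smc4 had means of 448 ± 154, 364 ± 118 and 483 ± 90.8 UPM and did not pass against DMSO.

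At the centromere, Cenpe and Cenpf fell under dCA and Cenpa did not pass. Cenpe, a kinesin of the kinetochore, ran from 92.1 to 287 UPM under DMSO, from 28.2 to 148 under dCA and from 130 to 291 under BRD-6989, with medians of 186, 104 and 194. All 12 conditions were lower under dCA than under DMSO and than under BRD-6989, and 11 of 12 dCA libraries lay below every BRD-6989 library. Cenpe fell by 0.90 ± 0.17 on the log2 scale under dCA (adjusted p = 7.65e-05) and changed by 0.14 ± 0.16 under BRD-6989 (adjusted p = 0.62). Cenpf, another kinetochore protein, ran from 143 to 314 UPM under DMSO, from 52.6 to 234 under dCA and from 139 to 240 under BRD-6989, with medians of 236, 141 and 179. It fell by 0.55 ± 0.16 on the log2 scale under dCA (adjusted p = 0.00947, lower in 10 of 12 conditions) and changed by -0.27 ± 0.16 under BRD-6989 (adjusted p = 0.232). Cenpa, the centromeric histone, had log2 changes of 0.02 ± 0.24 and 0.00 ± 0.23. The checkpoint kinase genes Bub1 and Bub1b, with 292 and 178 UMI in all, were not tested, and Bub1 had 77, 69 and 146 UMI under DMSO, dCA and BRD-6989.

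The passenger complex, which carries aurora B along the chromosomes, was measured through Incenp and Birc5. Incenp had means of 472 ± 208, 399 ± 166 and 375 ± 108 UPM under DMSO, dCA and BRD-6989, and Birc5 (survivin) had 110 ± 30.5, 95.6 ± 25.8 and 94.8 ± 18.9. Neither passed, with log2 changes between -0.24 and -0.12. The kinase genes were below the filter: Aurkb had 80, 75 and 82 UMI, Aurka had 73, 26 and 71, and Plk1 had 44, 20 and 38 under DMSO, dCA and BRD-6989. Without the filter Aurka had a log2 change of -1.74 ± 0.57 under dCA (adjusted p = 0.0334), and Plk1 had -1.36 ± 0.73 (adjusted p = 0.383).

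Among the spindle and cytokinesis genes, Tpx2 fell under dCA and Kif11 under BRD-6989. Tpx2, which activates aurora A on spindle microtubules, ran from 27.4 to 118 UPM under DMSO, from 3.98 to 77.3 under dCA and from 20.96 to 95.8 under BRD-6989, with medians of 63.3, 38.1 and 60.9. It fell by 0.98 ± 0.29 on the log2 scale under dCA (adjusted p = 0.0104, lower in 9 of 12 conditions) and changed by -0.25 ± 0.27 under BRD-6989. Kif11, the motor that pushes spindle poles apart, ran from 53.6 to 258 UPM under DMSO, from 75.9 to 220 under dCA and from 55.5 to 170 under BRD-6989, with medians of 176, 116 and 117. Its change was -0.44 ± 0.17 under dCA (adjusted p = 0.0661) and -0.59 ± 0.17 under BRD-6989 (adjusted p = 0.00925), and it was lower than DMSO in 10 of 12 conditions in each. The BRD-6989 call on Kif11 was lost on total read counts (adjusted p = 0.0659) and turned to 0.48 ± 0.37 with the Rn45s share in the model. The centralspindlin genes Kif23 and Racgap1 had means of 131 ± 42.5 and 126 ± 44.0 UPM under DMSO, 93.0 ± 46.1 and 98.2 ± 41.9 under dCA, and 110 ± 34.9 and 96.4 ± 36.7 under BRD-6989. They did not pass, nor did Kif20b, Nusap1 and Prc1, while Anln and Ect2, with 280 and 193 UMI in all, were not tested.

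**Figure D2:**
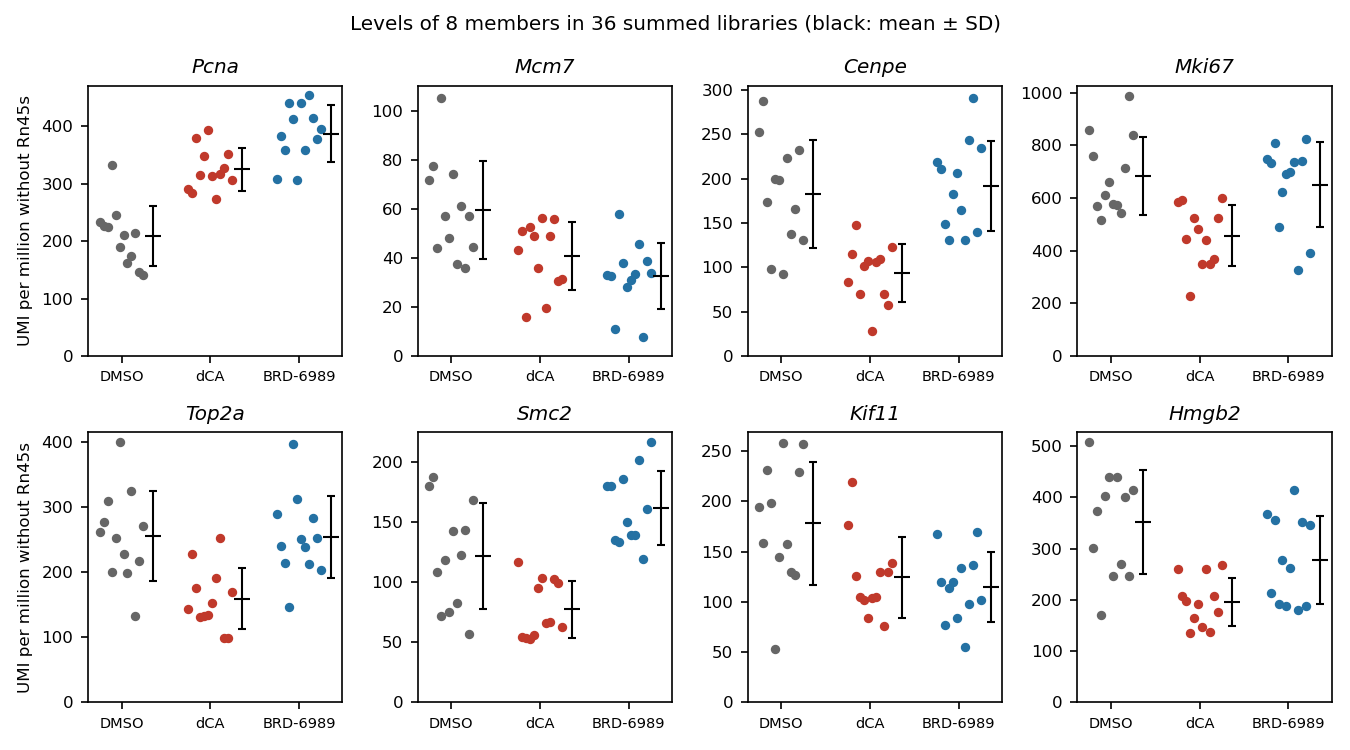
Level of 8 members (y axis, UPM) in each of the 12 summed libraries of DMSO (grey), dCA (red) and BRD-6989 (blue), with black marks for the mean ± SD. Pcna is higher in both inhibitor groups, and Cenpe, Mki67 and Top2a are lower under dCA alone. The dCA and BRD-6989 libraries of Smc2 do not overlap, a trait whose share over all genes was not counted.

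Of the 6 structural members, 4 fell under dCA and 2 under BRD-6989. Hmgb2, a chromatin protein abundant in cycling cells, ran from 170 to 508 UPM under DMSO, from 134 to 268 under dCA and from 180 to 414 under BRD-6989, with medians of 387, 194 and 270. It fell by 0.76 ± 0.11 on the log2 scale under dCA (adjusted p = 3.86e-07, lower in 12 of 12 conditions) and by 0.29 ± 0.11 with BRD-6989 (adjusted p = 0.0399, 10 of 12 conditions lower). The second call was lost in 7 of the 12 fits that left out 1 condition (NoStim, SeV, LPS, CpG, MDP, TDB or Zymosan, with log2 changes of -0.30 to -0.23 and adjusted p of 0.0507 to 0.134), and was -0.10 ± 0.24 with the Rn45s share in the model. It was also lost without the filter (adjusted p = 0.152), on total read counts (0.0767), without the replicate block (0.23), in wells of 60 min and later (-0.17 ± 0.14, 0.474) and over single wells (0.275). Lmnb1, the lamin of the nuclear envelope, ran from 42.3 to 161 UPM under DMSO, from 10.5 to 87.8 under dCA and from 30.01 to 124 under BRD-6989. It fell by 0.99 ± 0.27 on the log2 scale under dCA (adjusted p = 0.00592, or 0.0663 on total read counts), and its change under BRD-6989 was -0.52 ± 0.26 (adjusted p = 0.158).

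H2afz, the histone variant H2A.Z, had means of 311 ± 63.1, 231 ± 40.0 and 275 ± 56.1 UPM under DMSO, dCA and BRD-6989, and fell by 0.36 ± 0.12 on the log2 scale under dCA (adjusted p = 0.0244). This was lost without NoStim, Pam3cys, Poly(I:C), LPS or R848 (log2 changes of -0.34 to -0.32, adjusted p of 0.0515 to 0.063). Stmn1, the tubulin-binding protein stathmin, had means of 170 ± 59.8, 113 ± 48.9 and 139 ± 32.9 and fell by 0.55 ± 0.18 under dCA (adjusted p = 0.0255). That was lost without SeV, Poly(I:C), LPS or CpG (log2 changes of -0.52 to -0.46, adjusted p of 0.0549 to 0.0854) and in wells of 60 min and later (-0.46 ± 0.23, adjusted p = 0.169), with the Rn45s share in the model (adjusted p = 0.0556) and without the replicate block (0.0712). The tubulin genes moved less. Tuba1b had means of 969 ± 96.3, 849 ± 122 and 838 ± 131 UPM, with log2 changes of -0.13 ± 0.06 under dCA (adjusted p = 0.149) and -0.18 ± 0.06 under BRD-6989 (adjusted p = 0.0261), the latter lost without SeV, Pam3cys or FLA (-0.17, adjusted p of 0.0503 to 0.0647). That call was also lost without the filter (adjusted p = 0.131), without the replicate block (0.126), in wells of 60 min and later (0.0623) and over single wells (0.0754). Tubb5 had means of 357 ± 51.8, 295 ± 43.1 and 301 ± 39.6, with changes of -0.21 ± 0.10 and -0.21 ± 0.09 that did not pass.

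Of the 11 calls for dCA, those of Pcna, Cenpe, Cenpf, Tpx2 and Hmgb2 held in each of the 9 or 10 other settings and 12 fits without 1 condition in which they were tested. None of the 7 calls for BRD-6989 did. The summed level of 9 granulocyte markers ran from 35.8 to 101 UPM under DMSO, from 24.6 to 53.4 under dCA and from 19.1 to 53.9 under BRD-6989. These sums rest on 261, 131 and 142 UMI. S100a8 had 45 UMI under DMSO, 6 under dCA and 4 under BRD-6989, so most of the sum came from other markers of the list. The precursor markers Elane and Prtn3 had 0 UMI in every well. The summed level of 9 lymphoid markers ran from 39.0 to 128 UPM under DMSO, from 102 to 247 under dCA and from 171 to 231 under BRD-6989. Il7r made up most of it, with 256, 628 and 820 UMI, and Cd3e, Ms4a1, Nkg7 and Gzma were among those at 0, while Cd3d had 20, 28 and 32 UMI. The part of these markers' cells in the members' changes was not tested.

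Set directly against each other, dCA and BRD-6989, at doses that were themselves different, differed in all 4 tested chromosome structure genes, 1 of 3 centromere genes and 1 of 6 structural genes. Of the 36 members, 6 were lower under dCA and 0 higher, against 3.3% of all genes called in either direction, 2.2% higher and 1.11% lower. The 6 were Smc2 (-1.04 ± 0.17, adjusted p = 4.75e-05), Cenpe (-1.04 ± 0.17, adjusted p = 3.87e-05), Top2a (-0.65 ± 0.14, adjusted p = 0.00296), Mki67 (-0.49 ± 0.10, adjusted p = 0.00112), Hmgb2 (-0.46 ± 0.11, adjusted p = 0.00786) and Smc4 (-0.42 ± 0.11, adjusted p = 0.0202). Cenpe and Top2a held in all 10 other settings and 12 fits without 1 condition, whereas the Smc4 call was lost in 6 of the 12 fits that left out 1 condition (NoStim, Pam3cys, Poly(I:C), LPS, FLA or MDP_LPS, with log2 changes of -0.40 to -0.34 and adjusted p of 0.0521 to 0.0806). With the Rn45s share in the model Smc2 was -0.67 ± 0.27 (adjusted p = 0.284). In wells of 60 min and later Mki67 was -0.45 ± 0.13 (adjusted p = 0.0552), Hmgb2 -0.40 ± 0.15 (adjusted p = 0.183) and Smc4 -0.43 ± 0.14 (adjusted p = 0.114). Without the replicate block the adjusted p of Mki67, Hmgb2 and Smc4 was 0.0767, 0.174 and 0.228. With the Rn45s share in the model that of Hmgb2 was 0.0742 and that of Smc4 0.278, and on total read counts that of Smc4 was 0.0679.

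No S-phase gene passed between the inhibitors. The difference in Pcna was -0.22 with an approximate 95% interval of -0.43 to -0.02 before adjustment (adjusted p = 0.272), and that in Mcm7 was 0.39 with an interval of -0.12 to 0.89. For Kif11 the difference was 0.14 with an interval of -0.20 to 0.49, and for Tuba1b it was 0.05 with an interval of -0.07 to 0.17. The widest of these intervals was that of Mcm7.

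The summed levels of each group were also compared condition by condition. The 31 mitotic members together had a mean of 3902 ± 573 UPM under DMSO, 2892 ± 449 under dCA and 3674 ± 386 under BRD-6989 (SD, n = 12), and were lower under dCA than under DMSO in 12 of 12 conditions. The 6 structural members had 2240 ± 195, 1724 ± 146 and 1888 ± 138, lower than DMSO in 12 of 12 conditions under either inhibitor. The 10 S-phase members had 836 ± 123, 858 ± 91.6 and 874 ± 86.3, so their sum differed by less than the spread between libraries. Without Pcna that sum was 627 ± 109, 533 ± 74.7 and 486 ± 73.0, lower than DMSO in 10 of 12 conditions under dCA and in 11 of 12 under BRD-6989. No test was made of these sums. They depend on the total they are divided by: with Rn45s in the total, the mitotic sum under BRD-6989 was higher than DMSO in 11 of 12 conditions (log2 ratio 0.18 in place of -0.08). On that scale the structural sum was lower than DMSO in 10 of 12 conditions under dCA, and under BRD-6989 it was higher in 6 and lower in 6 (log2 ratio 0.011 in place of -0.25).

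**Figure D3:**
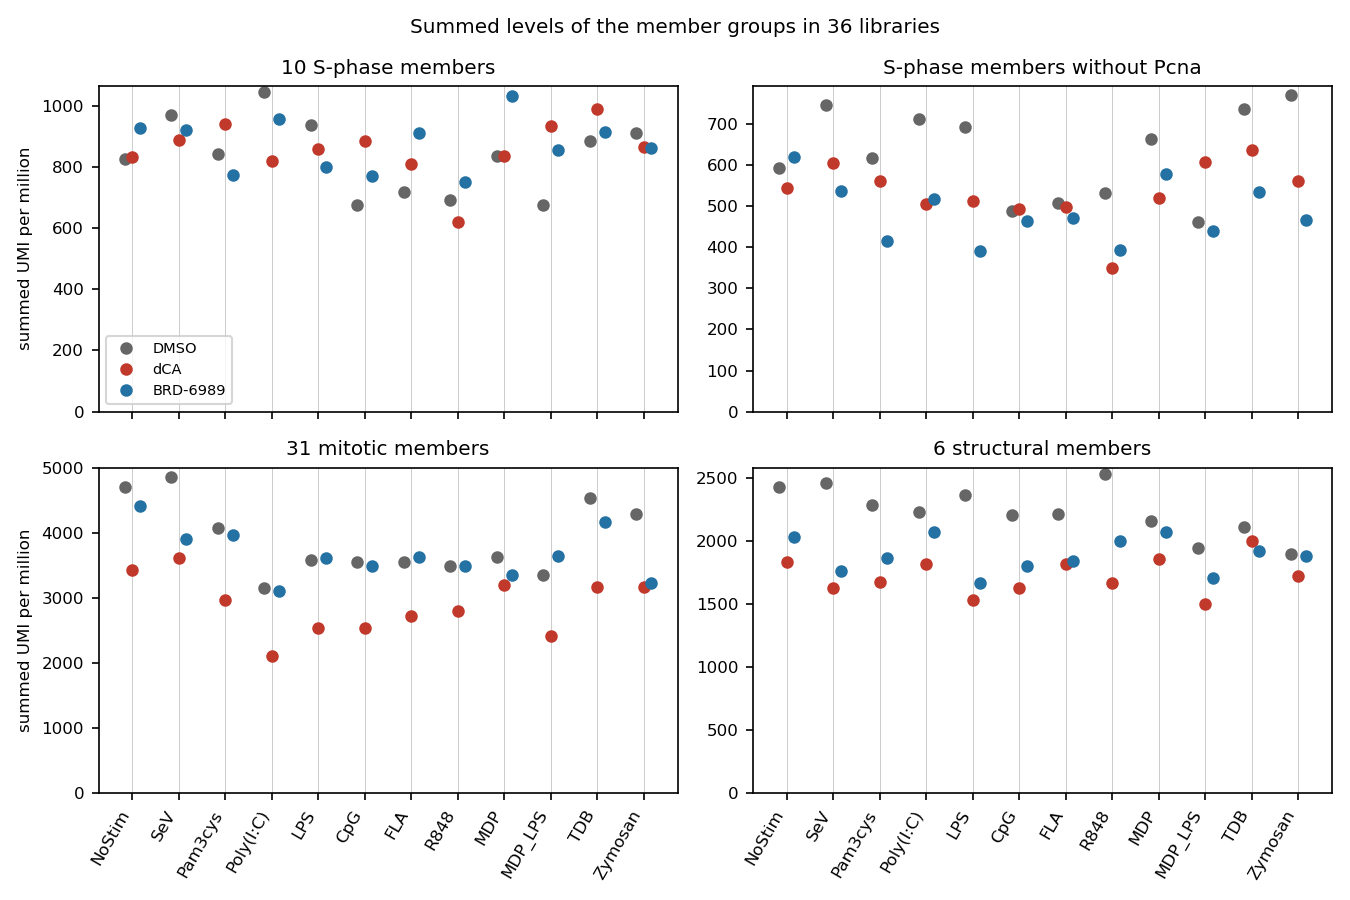
Summed level (y axis, UPM) of the S-phase members, the S-phase members without Pcna, the mitotic members and the structural members in each of 12 conditions (x axis), for DMSO (grey), dCA (red) and BRD-6989 (blue), 1 summed library per point. The dCA points of the mitotic panel lie below DMSO in 12 of 12 conditions, and Poly(I:C) has the lowest point of each pretreatment.

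In wells without a stimulus no member passed: 0 of 41 tested were called under dCA and 0 under BRD-6989, against 0.908% and 1.06% of all genes (0.771% and 0.754% higher, 0.137% and 0.309% lower). At an unadjusted p under 0.05 there were 4 under dCA and 2 under BRD-6989. The values of 4 leading members are given with their SE. Cenpe was -1.57 ± 0.63 under dCA and -0.10 ± 0.55 under BRD-6989, Mki67 was -0.55 ± 0.29 and -0.23 ± 0.28, Hmgb2 was -0.81 ± 0.41 and -0.22 ± 0.41, and Pcna was 0.38 ± 0.48 and 0.54 ± 0.48. Except for Cenpe under BRD-6989, these had the sign seen over all conditions. These 24 wells are also part of the summed libraries. The difference of each inhibitor's change between stimulated and unstimulated wells was tested directly and passed for 0 of 48 members under dCA and 0 under BRD-6989, among 0 and 1 of 10202 genes (0% and 0.0098%). At an unadjusted p under 0.05 there were 6 and 3. For neither set of tests was the share of all genes at that p counted, so no change is read from these numbers.

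Averaged over the stimuli, no member was called. Set against NoStim, the mean of the 11 stimuli gave 0 of 36 calls, against 2.09% of all genes, 1.79% higher and 0.299% lower. At an unadjusted p under 0.05 it gave 5 members, but the share of all genes at that p was not counted. DESeq2 called 1. The median log2 change of the members was -0.20 and that of all genes -0.02, with 24 of 36 below 0. Hmgb2 came nearest at -0.51 ± 0.15 (adjusted p = 0.0614), followed by Incenp at -0.52 ± 0.18 (adjusted p = 0.13).

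Among single stimuli, Poly(I:C), a mimic of double-stranded RNA, lowered 4 members, against 4.36% of all genes called in either direction, 2.6% higher and 1.76% lower. Incenp was 832, 554 and 341 UPM in the DMSO, dCA and BRD-6989 NoStim libraries and 301, 164 and 200 with Poly(I:C). Mki67 was 861, 584 and 749 without a stimulus and 517, 228 and 489 with Poly(I:C), and Hmgb2 was 508, 260 and 368 against 170, 134 and 191. For these 3 genes, called on the same libraries, the NoStim library was the higher one on every plate. The log2 changes were -1.33 ± 0.25 for Incenp (adjusted p = 0.000346), -0.83 ± 0.20 for Mki67 (adjusted p = 0.00503) and -1.13 ± 0.22 for Hmgb2 (adjusted p = 0.000386). Mcm3 fell too (-1.67 ± 0.51, adjusted p = 0.0438), but its libraries were 119, 26.7 and 126 UPM without a stimulus and 36.02, 38.0 and 11.1 with Poly(I:C), so it was not lower on the dCA plate. The calls were lost in wells of 60 min and later for Incenp (-1.07 ± 0.36, adjusted p = 0.0766), without the DMSO plate for Hmgb2 (-0.88, adjusted p = 0.0757), without the dCA plate for Mki67 (-0.61, adjusted p = 0.216), and without the DMSO or the BRD-6989 plate for Mcm3 (-1.63 and -0.82, adjusted p = 0.218 and 0.658). Without the replicate block those of Hmgb2, Mki67 and Mcm3 were lost (adjusted p = 0.0764, 0.214 and 0.119), and on total read counts those of Mki67 and Mcm3 (0.0504 and 0.274).

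The Poly(I:C) libraries also differed in their totals. They held 342049 to 449471 UMI without Rn45s against 277732 to 333900 for NoStim, and their Rn45s share was 35.2 to 44.4% against 46.1 to 54.5%. With that share in the model no Poly(I:C) call remained, and Mki67 turned to 0.16 ± 0.28 (adjusted p = 0.94) and Incenp to -0.50 ± 0.39 (adjusted p = 0.804). The mitotic sum was lowest with Poly(I:C) on every plate, at 3159, 2108 and 3113 UPM against 4710, 3439 and 4423 for NoStim, while the S-phase sum was 1045, 822 and 959 against 828, 834 and 928.

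CpG, a DNA ligand of TLR9, lowered Incenp (-0.95 ± 0.26, adjusted p = 0.0356) and Kif23 (-1.40 ± 0.38, adjusted p = 0.036), with 1.56% of all genes called, 1.34% higher and 0.228% lower. FLA lowered Incenp (-1.11 ± 0.25, adjusted p = 0.007), with 1.56% called, 1.39% higher and 0.176% lower. R848, a ligand of TLR7, lowered Ccnb1 (-2.03 ± 0.59, adjusted p = 0.0489), with 2.6% called, 2.27% higher and 0.334% lower. Ccnb1 was 82.8, 63.4 and 102 UPM in the NoStim libraries and 20.6, 16.5 and 22.2 with R848. Kif23 was 202, 86.7 and 159 without a stimulus and 79.2, 39.8 and 46.8 with CpG. Each of these 4 calls was lost without 1 or more plates: Kif23 and Ccnb1 without any 1 of the 3 (log2 changes of -1.49 to -1.20 and -2.05 to -1.93, adjusted p of 0.0692 to 0.454 and 0.133 to 0.362), and Incenp without the DMSO or the dCA plate (-0.74 to -0.70 for CpG and -1.09 to -0.63 for FLA, adjusted p of 0.355 to 0.462 and 0.0908 to 0.487). All 4 were also lost without the replicate block (adjusted p of Incenp 0.158 for CpG and 0.054 for FLA, of Kif23 0.109 and of Ccnb1 0.0975) and in wells of 60 min and later (0.233, 0.607, 0.315 and 0.166). On total read counts both calls on Incenp (0.198 and 0.199) and that on Ccnb1 (0.662) were lost. Those on Kif23 and Ccnb1 were lost without the filter (0.0825 and 0.0677) and with the Rn45s share in the model (0.0556 and 0.16). With Rn45s kept in the counts that on Ccnb1 was lost (0.0514). The other 7 stimuli called 0 members, while of all genes SeV called 0.105%, Pam3cys 1.77% (1.6% higher, 0.176% lower), LPS 3.92% (3.37% higher, 0.545% lower) and MDP 0.0527%, the last and SeV all higher. MDP_LPS called 3.81% of all genes (3.46% higher, 0.351% lower), TDB 0.141% (0.105% higher, 0.0351% lower) and Zymosan 2.79% (2.58% higher, 0.211% lower). Every stimulus was set against the same 3 NoStim libraries, so the changes are not independent. The 4 members that Poly(I:C) lowered were also below 0 with MDP, without passing. Mki67 was -0.84 ± 0.20 (adjusted p = 0.0944) and Hmgb2 -0.95 ± 0.22 (0.0811). Incenp was -0.91 ± 0.25 (0.289) and Mcm3 -0.48 ± 0.48 (0.934). A call with 1 stimulus thus does not set it apart from the others.

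Over the 8 times, 4 of 44 tested members fell per hour and 0 rose, in 24 libraries that each summed the 12 conditions of a plate and time. Of all genes, 8.16% were called in either direction, 5.7% higher and 2.46% lower. Tuba1b fell from a mean of 1034 ± 82.7 UPM at 15 min to 752 ± 76.4 at 180 min (SD, n = 3 plates), by 0.13 ± 0.03 on the log2 scale per hour (adjusted p = 0.00338). Kif20b, a kinesin of cytokinesis, went from 93.0 ± 40.0 to 51.8 ± 15.2 (-0.40 ± 0.11 per hour, adjusted p = 0.0153), with its lowest mean, 23.1 ± 19.3, at 150 min. Tpx2 went from 74.6 ± 18.0 to 34.9 ± 28.5 (-0.39 ± 0.12 per hour, adjusted p = 0.0324), and Mcm4 from 38.8 ± 17.9 to 11.0 ± 4.85 (-0.56 ± 0.18 per hour, adjusted p = 0.0387). All 3 plates ended lower than they began for Tuba1b, Tpx2 and Mcm4, while Kif20b ended about level on the dCA plate, at 47.5 against 47.2 UPM. Each of the 4 calls was lost without the DMSO plate (Tuba1b -0.11, Kif20b -0.30, Tpx2 -0.29 and Mcm4 -0.45 per hour, adjusted p = 0.129, 0.231, 0.311 and 0.329). Without the BRD-6989 plate those of Kif20b (-0.46, adjusted p = 0.0946) and Mcm4 (-0.46, adjusted p = 0.351) were lost, and without the dCA plate that of Tpx2 (-0.36, adjusted p = 0.129). On total read counts those of Kif20b, Tpx2 and Mcm4 were lost (adjusted p = 0.161, 0.191 and 0.235), and without the 15 min wells those of Kif20b and Tpx2 (0.0912 and 0.106).

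**Figure D4:**
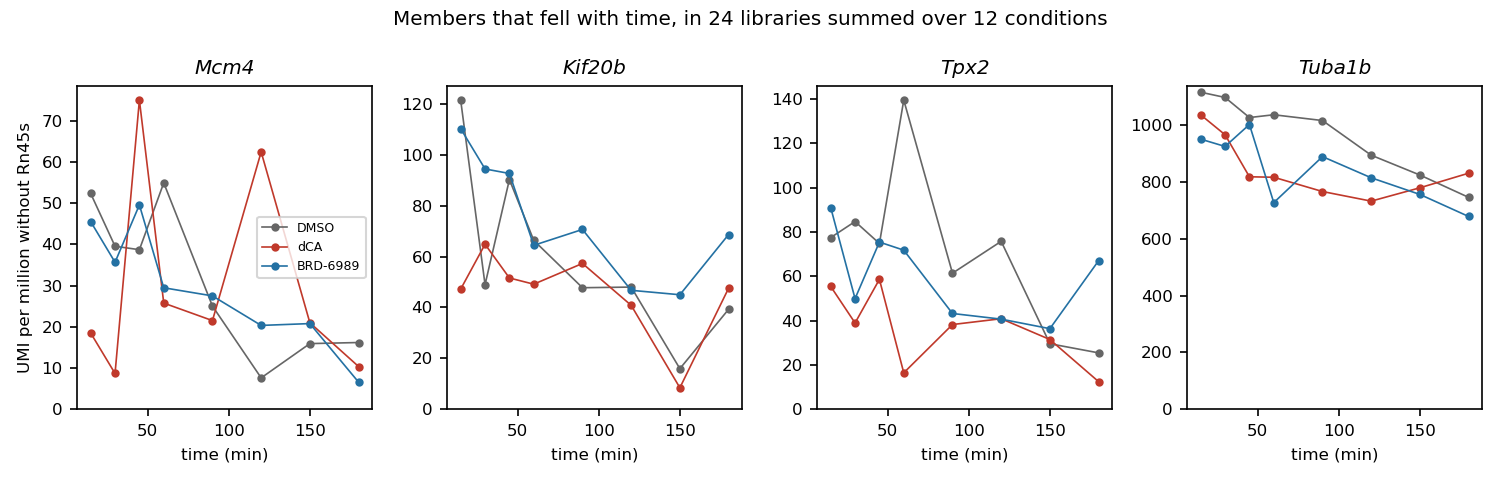
Levels of the 4 members that fell with time (y axis, UPM) against time in min (x axis), with 1 line per plate and 1 library per point. Tuba1b starts between 951 and 1116 UPM and ends between 679 and 831, and the lines of the other 3 genes cross.

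Other genes of the cycle were read from lists beside the members. Of 36 further replication genes, 21 were tested: 4 fell and 0 rose under dCA, and 3 fell and 0 rose under BRD-6989, against 8.12% and 10.5% of all genes lower. The largest falls under dCA were those of Clspn (claspin, a fork protein, -1.43 ± 0.33, adjusted p = 0.000914), Pola1 (-0.85 ± 0.30) and Rfc1 (-0.58 ± 0.21). Under BRD-6989 they were Clspn (-1.04 ± 0.32, adjusted p = 0.0134), Lig1 (-0.54 ± 0.18) and the maintenance methyltransferase gene Dnmt1 (-0.42 ± 0.14). Of 44 further genes listed for mitosis, 27 were tested, and 1 fell under each inhibitor, a smaller share than among all genes. They were Hmgb1 under dCA (-0.36 ± 0.12) and the condensin gene Ncapd2 under BRD-6989 (-0.77 ± 0.27). Hmgb1 is a chromatin gene that is not confined to mitosis. The median log2 changes of the replication list were -0.24 and -0.35, and those of the mitosis list -0.23 and -0.09, beside -0.01 and 0.00 for all genes.

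The lists of regulators and brakes are short, and their counts stand beside 9.82% of all genes higher and 8.12% lower under dCA and 10.5% each way under BRD-6989. Of 10 genes for G1 cyclins and kinases, 5 were tested, and Ccnd2 (-0.49 ± 0.14 and -1.05 ± 0.15) and Ccnd3 (-0.94 ± 0.33 and -0.99 ± 0.33) fell under dCA and BRD-6989, with Ccnd1 (-0.18 ± 0.06) under BRD-6989. Ccnd2 was higher under dCA than under BRD-6989 (0.56 ± 0.15, adjusted p = 0.0184). Its fall under dCA was not uniform. Ccnd2 was 562 UPM under DMSO and 150 under dCA without a stimulus. It was higher under dCA with LPS (814 against 693), MDP_LPS (878 against 843) and Zymosan (662 against 542), and lower in the other conditions. The change under dCA differed between stimulated and unstimulated wells by 1.61 ± 0.47, which did not pass (adjusted p = 0.237). Of 15 brakes of the cycle, 7 were tested, and under each inhibitor 2 rose, 2 fell and 3 did not pass: the damage-response gene Gadd45a rose by 2.28 ± 0.40 and 2.18 ± 0.40 and Gadd45b by 0.34 ± 0.12 and 0.56 ± 0.12, while Cdkn1a (p21) changed by -0.36 ± 0.09 and -0.37 ± 0.09 and Btg2 by -1.19 ± 0.29 and -1.44 ± 0.29. Gadd45a had 43 UMI under DMSO, 219 under dCA and 253 under BRD-6989. Its rise was not seen at every time or with every stimulus. In that order it was 6.28, 111 and 133 UPM at 15 min, and 18.5, 14.5 and 21.3 at 180 min. With R848 it was 37.7, 6.58 and 44.4 UPM. Whether its change differed by time was not tested. Of 23 genes for E2F, pocket proteins, MYC and partners, 7 were tested, and 1 rose and 1 fell under each inhibitor. Myc rose under both (0.70 ± 0.17 and 0.45 ± 0.17), Rbl1 fell under dCA (-0.98 ± 0.36) and E2f1 fell under BRD-6989 (-0.75 ± 0.20).

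Averaged over the stimuli, Cdkn1a (1.40 ± 0.15, adjusted p = 6.34e-10), Gadd45b (2.04 ± 0.23, adjusted p = 1.79e-09) and Btg2 (2.53 ± 0.60, adjusted p = 0.00776) rose, while E2f1 (-1.03 ± 0.26, adjusted p = 0.0182) and Dnmt1 (-0.77 ± 0.20, adjusted p = 0.0171) fell. Per hour, Ccnd2 rose by 0.78 ± 0.08 and Cdkn1a by 0.69 ± 0.06, while Ccnd1 fell by 0.21 ± 0.03 and Ndc80, a kinetochore gene, by 0.45 ± 0.14 on the log2 scale.

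The same wells carried reporters of transcription factor activity, counted through sequence tags. Of 58 reporters, those named for p53 and NF-Y bear on the cycle, and no reporter name held E2F or MYC. The NF-Y reporter took 1.22 ± 0.11% of reporter counts under DMSO, 1.30 ± 0.06% under dCA and 1.29 ± 0.09% under BRD-6989 (SD, n = 12), and the p53 reporter took 1.31 ± 0.19%, 1.43 ± 0.14% and 1.36 ± 0.13%. Neither passed under an inhibitor, while 36.2% of the reporters were called under each. The log2 changes, fitted after TMM scaling, were -0.01 and -0.05 for NF-Y and 0.02 and -0.05 for p53 under dCA and BRD-6989. Except for p53 under dCA, their sign was opposite to that of the shares, so no direction is given. With LPS the fitted change of the NF-Y reporter was 0.25 ± 0.10 (adjusted p = 0.0373), with 37.9% of the reporters called.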

How the data were processed

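Transcripts of each well were counted by a 3' digital gene expression assay. The authors deposited UMI counts and total read counts for 23481 genes, and reporter counts for 58 constructs. Per the submitters' processing notes, BWA and edgeR were used with the build mm10. Their versions, the annotation and the counting steps were not given in the sources. Times are those of the sample labels (15 to 180 min), although the series text gives 0 to 4 h.

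Counts were summed into 36 libraries (over times) or 24 (over conditions), without Rn45s, and tested with edgeR 4.0.16 (TMM, quasi-likelihood F test, Benjamini-Hochberg over all genes tested, threshold 0.05) in R 4.3.3, after filterByExpr with a minimum count of 10. The model held pretreatment and condition, or pretreatment and hours. The replicate block was the condition for inhibitor tests, and the pretreatment plate for stimulus tests and the change per hour. Unstimulated wells were tested singly, where the mean UMI of a gene reached 1, with time as the block. The difference between stimulated and unstimulated wells was tested with the same filter and block. That test used 48 libraries, summed by pretreatment, time and whether a stimulus was given. Tests were 2-sided. DESeq2 1.42.0 and the other alternatives are in the closing section. On simulated counts for dCA against DMSO (5691 genes), 86 of 107 genes changed 2-fold, 92 of 93 changed 4-fold and 4 of 5491 unchanged genes were called. These counts were drawn without plate or stimulus effects and with a spread set by level alone. They therefore give no rate of false calls for the plates measured here.

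Members and gene lists were chosen with earlier results of these data known. Named in full were the 3 members with the most UMI over all wells in each of 8 role groups. Every member called for an inhibitor was named too, and up to 5 called members per direction for stimuli and time. Of each further list, up to 3 called genes per direction were named. Motif matches are counts of letters in RefSeq promoter windows. Intervals are a normal quantile times the SE. UMI counts are summed over wells of 1 plate, so their error covers these libraries alone.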

Additional observations from a re-analysis of the deposited data

Results flagged for a closer look

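Wells that stood far from the other 7 of their series were sought in 108 groups of 8 wells (3 summed levels, 36 series), and 7 were found; chance gives about 1 in 20 groups. Each value is a summed level in UPM (UMI per 1000000 UMI without Rn45s), from 1 well of 47 to 248 UMI of the members. For the S-phase members, the SeV well at 60 min stood at 1436.78 under dCA and at 1548.97 under BRD-6989, and the Zymosan well at 15 min stood at 1546.57 under BRD-6989. For the mitotic members, the FLA well at 60 min under BRD-6989 stood at 5076.66. For the structural members, the FLA well at 15 min stood at 3666.08 under DMSO, the MDP_LPS well at 15 min at 1980.94 under dCA, and the TDB well at 45 min at 3013.11 under BRD-6989. Each was the highest of its series.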

How the results depend on the processing

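The 11 members called for dCA were 9 to 15 under the other settings, and 10 to 12 when 1 condition was left out. Of all genes, dCA called 6.71 to 29.5% under the other settings. For BRD-6989 the 7 called became 2 without the low-count filter, with the Rn45s share in the model and on total read counts. They became 2 in wells of 60 min and later as well, and 4 with no replicate block. Leaving out 1 condition gave 4 to 7. The share of all genes called moved too, to 7.59% without the filter, 3.41% with the Rn45s share and 8.92% on total reads. It was 18.9% in late wells and 16.9% with no replicate block. Between the inhibitors the 6 became 3 with the Rn45s share in the model, with no replicate block and in wells of 60 min and later, and 5 to 6 when 1 condition was left out. Of all genes, 1.53%, 1.09% and 1.98% were called in the named settings, in that order. For the mean of the stimuli the 0 became 1 with DESeq2, a stricter filter, no filter, no TMM and late wells, and was 0 to 1 when 1 plate was left out. Of all genes, 2.64%, 4.08%, 0.993%, 1.99% and 3.72% were called in the named settings, in that order. Over single stimuli the 8 calls became 2 with the Rn45s share in the model, 3 on total reads, 1 with no replicate block, 5 in late wells and 3 to 5 when 1 plate was left out. For single stimuli the share of all genes called was not counted in these settings, so no change of the members alone is read from these numbers. Per hour the 4 became 1 on total reads, 7 with the Rn45s share in the model, 2 without the 15 min wells and 2 with no replicate block (an alternative added after the data were seen), and 1 to 3 when 1 plate was left out. Of all genes, 4.38%, 8.62%, 7.46% and 5.54% were called in the named settings, in that order. In unstimulated wells the 0 calls for BRD-6989 became 1 with no TMM, and 0 to 1 when 1 time was left out. Those for dCA and for the differences stayed at 0. The share of all genes was not counted for these settings, nor for any fit that left out 1 condition, plate or time.

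With the Rn45s share in the model, Kif11 (0.48) and Smc2 (-0.15) under BRD-6989, Mki67 with Poly(I:C) (0.16) and Mki67 under BRD-6989 (0.74) changed sign. The cause was not tested. The log2 ratio of summed levels changed sign without Pcna for S phase under dCA (0.04 to -0.23) and BRD-6989 (0.07 to -0.36). With Rn45s in the total it became 0.33 for S phase, 0.18 for mitosis and 0.011 for structural members under BRD-6989, and -0.33 for mitosis under dCA (from -0.43). Members with few UMI set the limit: 12 of 48 were too rare to test against DMSO.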
